A study of Mus musculus with 19 samples.

Results

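Integrin genes were followed in regulatory T cells (Tregs) of mouse lymph nodes. The 10 genes were Itgae, Itga4, Itga6, Itgal, Itgav, Itgb1, Itgb2, Itgb3, Itgb7 and Itgb8, taken by symbol from the 24982 genes of the deposited count table, where they stand in capitals (ITGAE, ITGA4, ITGA6, ITGAL, ITGAV, ITGB1, ITGB2, ITGB3, ITGB7 and ITGB8). All 10 were found and passed the filter on low counts. The cells came from adult Foxp3DTR mice, a knock-in strain in which the Foxp3 locus also drives a diphtheria toxin receptor and GFP, and CD4+ FoxP3-GFP+ cells were sorted by CD44 staining. Every group carried this allele, so GFP reports Foxp3 transcription in all of them. Injured mice had received a burn 7 days before, and uninjured mice were sham treated. The axillary, brachial and inguinal nodes that drain the injury site were taken in both. There were 4 CD44high and 5 CD44low samples of uninjured mice, and 4 CD44high and 6 CD44low samples of injured mice, 19 in all. Of the 6 injured CD44low samples, 3 carry a second number (1_2, 4_2 and 5_2), which no source read for this work explains. The labels do not say whether samples were separate animals, so p-values measure only the spread between these samples.

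Integrins are receptors of 1 alpha and 1 beta chain that hold cells to other cells and to matrix. A chain reaches the cell surface as part of a pair, and a beta chain can pair with several alpha chains. On T cells, alphaL-beta2 (LFA-1) binds ICAM proteins, alpha4-beta1 (VLA-4) binds VCAM-1, alpha4-beta7 binds the gut addressin MAdCAM-1, and alphaE-beta7 (CD103) binds E-cadherin on epithelium. Alpha6-beta1 binds laminin. Among the beta chains followed here, alphaV pairs with beta1, beta3 or beta8. AlphaV-beta8 can release active TGF-beta from its latent complex.

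Library totals ranged from 5582234 to 9433610 counts. All 8 Treg markers of the fixed list (Foxp3, Il2ra, Ikzf2, Ctla4, Tnfrsf18, Cd4, Cd3e and Cd3g) had counts in each group. Cd44 mRNA followed the sort, with 541 to 626 CPM (counts scaled to a common library size, after normalization between libraries) in uninjured CD44high against 111 to 156 in uninjured CD44low Tregs, and 369 to 497 against 102 to 149.8 in injured mice. Expression of long against short transcripts varied between libraries. The slope of log2 CPM on log2 transcript length ran from 0.0741 to 0.192 in uninjured CD44low and from -0.0553 to -0.0150 in uninjured CD44high libraries. In injured mice it ran from -0.272 to 0.0135 in CD44high and from -0.181 to 0.148 in CD44low libraries, with CD44high library 2 and CD44low library 1_2 lowest. This trend is given beside the integrin results that move with it. The chain ratios were not adjusted for it. In bulk samples, fewer cells that carry a transcript and less of it per cell cannot be told apart.

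In uninjured mice, 4 of the 10 chains were higher in CD44high than in CD44low Tregs (Itgae, Itgb1, Itgb7 and Itgb8), 3 were lower (Itga4, Itga6 and Itgb3) and 3 did not pass an adjusted p of 0.05 (Itgal, Itgav and Itgb2). Of all 11464 genes tested, 24.7% were higher and 21.3% lower, 46.1% together. The 10 chains had a median log2 fold change of 0.26, against 0.01 over all genes. In injured mice the same 4 were higher and Itga4 and Itga6 were lower, where 20.1% of all genes were higher and 17.2% lower, 37.4% together, with a median of 0.24 against 0.00 over all genes. Injury moved 3 chains in CD44high Tregs (Itgb1 higher, Itgae and Itgb7 lower, against 1.06% of all genes higher and 1.33% lower, 2.38% together) and 3 in CD44low Tregs (Itgb1 higher, Itga4 and Itgb3 lower, against 4.24% higher and 3.36% lower, 7.6% together). The effect of injury differed between the subsets for 1 chain, Itga4, against 0.645% of all genes (0.192% with a higher and 0.454% with a lower difference). The subset and injury comparisons share libraries, so they are not independent of each other.

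By a second rule, that no library of one group overlaps the other, 5 chains were higher and 3 lower in CD44high Tregs of uninjured mice, against 21.9% and 18.8% of all genes, with Itgb2 added to those called. In injured mice it held for 4 higher and 2 lower chains, against 15.6% and 9.2% of all genes. After injury 1 chain was higher (Itgb1) and 2 lower (Itgae and Itgb7) in CD44high Tregs, against 5.91% and 7.34%. In CD44low Tregs 0 chains were higher and 1 was lower (Itga4), against 2.39% and 2.29%. Under the stricter rule that the study used, an unadjusted p under 1e-06 with a 2-fold change, 5 chains passed between subsets in uninjured mice (8.3% of all genes) and 4 in injured mice (6% of all genes). After injury 0 passed by edgeR in either subset (0.148% and 0.122% of all genes), although 4 chains had an unadjusted p under 0.05 in each, and 1 passed for the difference between effects (0.0872% of all genes).

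In GENCODE vM21 (GRCm38) the alpha chain genes lie at chr11:73090583-73147446 (Itgae), chr2:79255426-79333123 (Itga4), chr2:71745616-71858416 (Itga6), chr7:127296260-127335138 (Itgal) and chr2:83724397-83806916 (Itgav), all on the plus strand. The beta chain genes lie at chr8:128685654-128733200 (Itgb1), chr10:77530252-77565708 (Itgb2) and chr11:104608000-104670476 (Itgb3) on the plus strand, and at chr15:102215995-102231944 (Itgb7) and chr12:119158022-119238802 (Itgb8) on the minus strand. All 10 are annotated as protein coding, and counts cover whole genes.

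**Figure D1:**
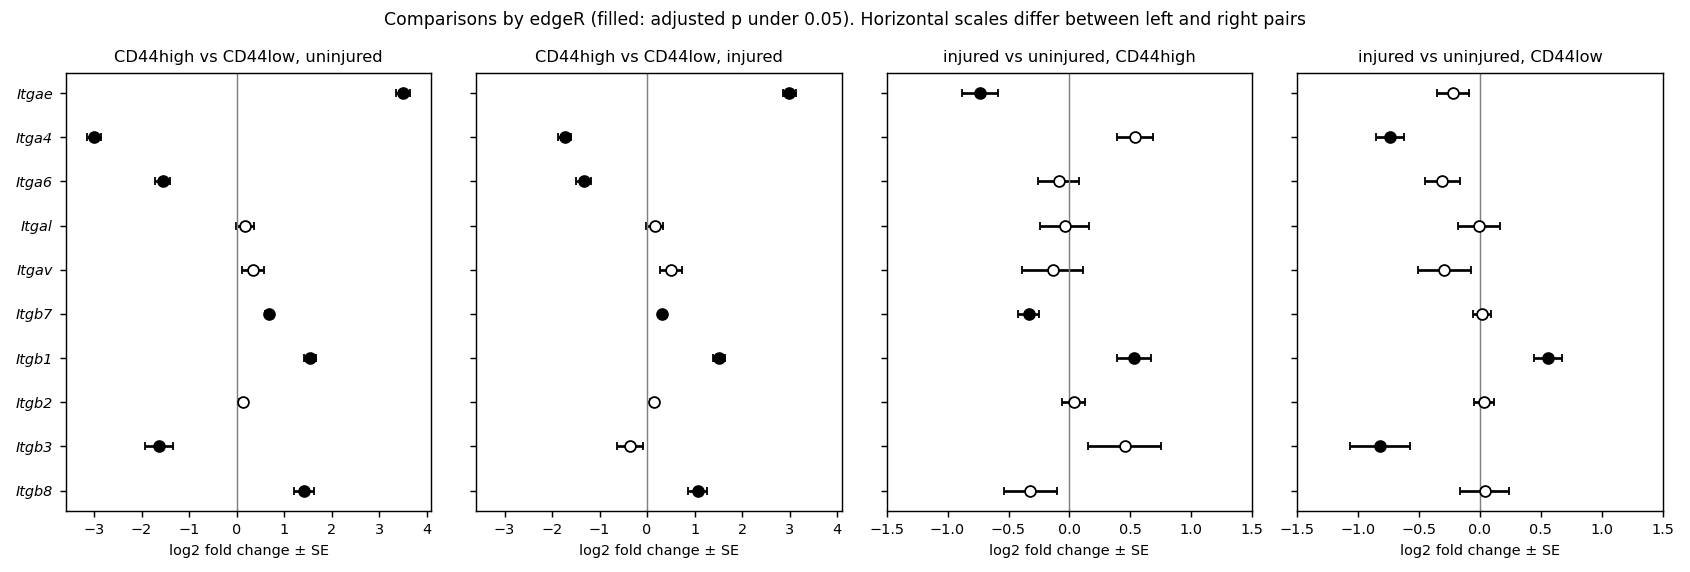
Log2 fold change ± SE of the 10 integrin chains in 4 comparisons by edgeR (filled points: adjusted p under 0.05). The horizontal scale of the subset comparisons is wider than that of the injury comparisons. Itgae lies farthest to the right and Itga4 farthest to the left in both subset comparisons, and Itgb1 lies to the right of 0 in all 4.

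**Figure D2:**
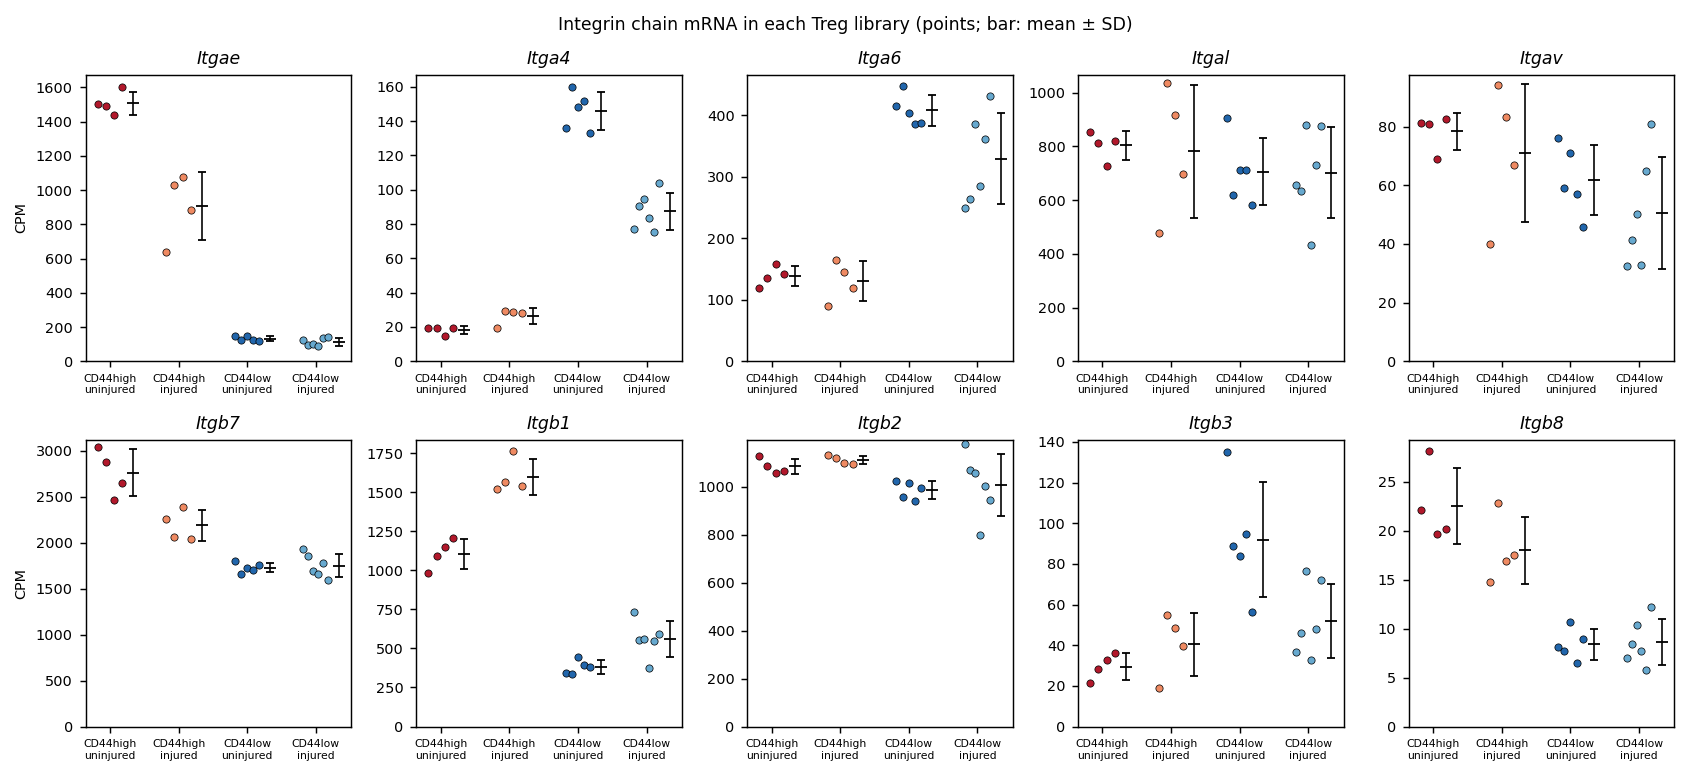
CPM of each integrin chain in each library (points), with the mean ± SD of the group beside them. Itgae, Itgb1, Itgb7 and Itgb8 lie higher in CD44high, Itga4 and Itga6 lie lower, and the libraries of the 4 groups overlap for Itgal and Itgav.

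Promoter sequences are shown for the chains that differed between subsets in both uninjured and injured mice and that the RefSeq promoter table holds, which were 4 of 6 (Itga4, Itgb1, Itgb7 and Itgb8). The table held 5 of the 10 chains. Each window runs from 250 bases before to 50 bases after the RefSeq start, in build GRCm38.p6, 5′ to 3′ on the strand of the gene. Itga4 is at chr2:79255176-79255475 on the plus strand, Itgb1 at chr8:128685404-128685703 on the plus strand, Itgb7 at chr15:102231886-102232185 on the minus strand and Itgb8 at chr12:119238227-119238526 on the minus strand. Capitals mark matches on either strand to TGTGGT (RUNX), TGANTCA (AP-1), GGGCGG (SP and KLF), CCGGAAG (ETS) or CAGACA (SMAD).
Itga4: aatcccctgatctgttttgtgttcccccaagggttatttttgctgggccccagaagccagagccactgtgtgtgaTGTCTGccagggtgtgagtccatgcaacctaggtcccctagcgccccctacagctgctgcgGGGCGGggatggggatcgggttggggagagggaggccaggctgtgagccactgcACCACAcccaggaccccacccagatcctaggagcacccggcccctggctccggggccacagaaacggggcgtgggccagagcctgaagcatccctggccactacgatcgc
Itgb1: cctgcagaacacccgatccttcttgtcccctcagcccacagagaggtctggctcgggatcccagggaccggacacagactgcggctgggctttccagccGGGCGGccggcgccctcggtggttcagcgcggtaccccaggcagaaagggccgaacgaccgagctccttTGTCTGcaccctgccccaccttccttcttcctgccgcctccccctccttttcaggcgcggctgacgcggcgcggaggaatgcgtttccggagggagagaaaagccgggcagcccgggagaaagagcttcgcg
Itgb7: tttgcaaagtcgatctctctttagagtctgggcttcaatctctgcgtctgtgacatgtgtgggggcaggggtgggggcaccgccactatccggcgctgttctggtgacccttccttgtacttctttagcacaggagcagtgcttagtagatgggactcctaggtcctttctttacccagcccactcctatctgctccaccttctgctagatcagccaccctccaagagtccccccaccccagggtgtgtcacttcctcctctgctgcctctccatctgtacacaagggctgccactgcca
Itgb8: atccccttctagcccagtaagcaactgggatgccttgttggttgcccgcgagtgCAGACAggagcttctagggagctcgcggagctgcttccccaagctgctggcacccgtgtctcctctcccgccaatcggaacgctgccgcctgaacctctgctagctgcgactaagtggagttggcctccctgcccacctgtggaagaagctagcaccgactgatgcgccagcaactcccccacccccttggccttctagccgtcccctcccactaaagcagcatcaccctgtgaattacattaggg
The RUNX letters, present in 16.8% of the 32851 promoters of the table, stood only in the Itga4 window among these 4, 60 bases before the start. The SP and KLF letters (35.7% of promoters) stood once each in the Itga4 and Itgb1 windows. The SMAD letters (21% of promoters) stood once each in the Itga4, Itgb1 and Itgb8 windows. The Itgb7 window held no match to any of the 5, and the AP-1 letters (7.81% of promoters) and ETS letters (8.86%) were in none of the 4. No 2 of the searched motifs overlapped in these windows. A match is a description of letters and not of a bound site.

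Itgae encodes the alphaE chain (CD103) and had the largest rise in CD44high Tregs among the 10 chains. In uninjured CD44high libraries it was at 1503, 1492, 1435 and 1599 CPM, and in uninjured CD44low libraries at 149, 124, 149, 125 and 116 CPM. In injured mice the CD44high libraries held 637, 1027, 1076 and 884 CPM, and the 6 CD44low libraries 86.9 CPM at the lowest, 113 at the median and 139.8 at the highest. Every CD44high library lay far above every CD44low library. Between subsets the log2 fold change was 3.51 ± 0.15 (SE) in uninjured mice, an 11.4-fold difference (edgeR adjusted p = 1.01e-14), and 2.99 ± 0.14 in injured mice (edgeR adjusted p = 1.04e-13).

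Injury lowered Itgae within CD44high Tregs. The mean was 1507 ± 68.0 CPM (SD, n = 4) in uninjured and 906 ± 197 CPM (SD, n = 4) in injured mice, with no overlap between libraries. The level fell by 0.73 ± 0.15 on the log2 scale (edgeR adjusted p = 0.00707). Injured library 2, which had the lowest length trend of all 19, also had the lowest Itgae of its group. Without it the change was -0.59 (adjusted p = 0.0385), and with each library's length trend taken out -0.70 (adjusted p = 0.0038). In CD44low Tregs the means were 133 ± 15.3 CPM (n = 5) and 114 ± 22.3 CPM (n = 6), with a log2 change of -0.22 ± 0.13 (edgeR adjusted p = 0.300) and overlapping libraries. The CD44high effect minus the CD44low effect was -0.52 ± 0.20 for Itgae (edgeR adjusted p = 0.305), so the 2 effects were not shown to differ. In the annotation used here the Haspin gene lies within Itgae on the opposite strand, and the strand of counting is not stated. Haspin had 17 to 229 counts per library against 504 to 13011 for Itgae.

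Itgb7 encodes the beta7 chain, the partner of alphaE and also of alpha4, and was the most abundant of the 10 chains per transcript length in all 4 groups. It was at 3045, 2875, 2462 and 2652 CPM in uninjured CD44high and at 1797, 1661, 1728, 1703 and 1753 CPM in uninjured CD44low libraries. After injury the gene was at 2252, 2062, 2389.5 and 2043 CPM in CD44high libraries, and between 1591 and 1926 CPM with a median of 1734 in CD44low libraries. The subsets did not overlap in either condition. CD44high differed from CD44low Tregs by a log2 fold change of 0.67 ± 0.08 in uninjured (edgeR adjusted p = 4.17e-07) and 0.32 ± 0.08 in injured mice (edgeR adjusted p = 0.00244). Injury was followed by a change of -0.34 ± 0.09 in CD44high Tregs (edgeR adjusted p = 0.0393) and 0.02 ± 0.07 in CD44low Tregs (edgeR adjusted p = 0.912). The difference between these 2 effects was -0.35 ± 0.11 and did not pass (edgeR adjusted p = 0.185). It was -0.41 (adjusted p = 0.0464) with the injured CD44low libraries that carry a second number left out. The CD44high call did not hold in every setting. It was lost without 14 of the 19 libraries in turn (adjusted p up to 0.187) and with no filter on low counts (adjusted p = 0.113), while DESeq2 gave an adjusted p of 0.00443.

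For alphaE-beta7 the alpha chain was thus raised far more than its beta partner. Per transcript length (CPM per kb of the longest annotated transcript), the log2 ratio of Itgae to Itgb7 was -1.39 ± 0.14 (SD, n = 4) in uninjured CD44high and -4.23 ± 0.15 (n = 5) in uninjured CD44low Tregs. In injured mice it was -1.82 ± 0.36 (n = 4) and -4.48 ± 0.30 (n = 6). In linear terms there were 2.62 Itgb7 per Itgae in uninjured CD44high and 18.8 in uninjured CD44low Tregs. No CD44high library overlapped a CD44low library, and the ratio was below equality in all 19. Ratios, ranks and shares of genes depend on the length used. Ratios with another length are given in the closing section, whereas ranks and shares used the longest transcript alone. Differences in a log2 ratio between groups do not depend on the length.

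Itga4 encodes the alpha4 chain, the partner of beta7 and beta1. It moved opposite to Itgae and was the only chain whose response to injury passed the test for a difference between subsets. In uninjured mice it was at 19.6, 19.2, 14.5 and 19.4 CPM in CD44high and at 136, 159.9, 148, 152 and 133 CPM in CD44low libraries. Libraries of injured mice had it at 19.1, 29.1, 28.7 and 28.3 CPM in CD44high libraries, and between 75.2 and 104 CPM with a median of 87.0 in CD44low libraries. Every CD44low library lay above every CD44high library, and every uninjured CD44low library above every injured one. The 2 CD44high groups overlapped only through injured library 2, which lay within the uninjured range. The subsets differed by a log2 fold change of -3.00 ± 0.15 in uninjured mice (8.01-fold lower in CD44high, edgeR adjusted p = 6.66e-14) and -1.73 ± 0.13 in injured mice (3.32-fold lower, edgeR adjusted p = 3.76e-10).

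After injury, Itga4 fell in CD44low Tregs by 0.74 ± 0.12 on the log2 scale (edgeR adjusted p = 0.000726). This fall was -0.74 with the 3 libraries that have a second number left out and -0.71 with only those 3, and it was -0.41 (adjusted p = 0.0176) with the length trend of each library taken out. In CD44high Tregs the change was 0.53 ± 0.15 (edgeR adjusted p = 0.0556), which did not pass the test. Without injured CD44high library 2 it was 0.67 (adjusted p = 0.0125), with the length trend taken out 0.62 (adjusted p = 0.00901), and by DESeq2 0.53 (adjusted p = 0.0189). The difference between the 2 effects was 1.27 ± 0.19 (edgeR adjusted p = 0.000676). It ranged from 1.18 to 1.38 with each library left out in turn and was 1.03 (adjusted p = 0.00139) with the length trend taken out. The Cerkl gene overlaps Itga4 on the opposite strand in the annotation used here and had 77 to 186 counts per group, against 468 to 4775 for Itga4.

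The alpha4-beta7 ratio was also formed. The log2 ratio of Itga4 to Itgb7 per transcript length was -9.12 ± 0.13 (SD, n = 4) in uninjured CD44high and -5.43 ± 0.15 (n = 5) in uninjured CD44low Tregs, and -8.26 ± 0.34 (n = 4) and -6.19 ± 0.26 (n = 6) in injured mice. The ratio was therefore lower in CD44high Tregs with no overlap, and the means of the subsets were 3.68 apart in uninjured and 2.07 apart in injured mice. Of the summed CPM per kb of the 5 alpha chains, Itgae held 66.3% ± 0.646 (SD) in uninjured CD44high and 11.98% ± 0.687 in uninjured CD44low Tregs. Itga4 held 0.314% ± 0.0335 and 5.23% ± 0.637 in the same groups.

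**Figure D3:**
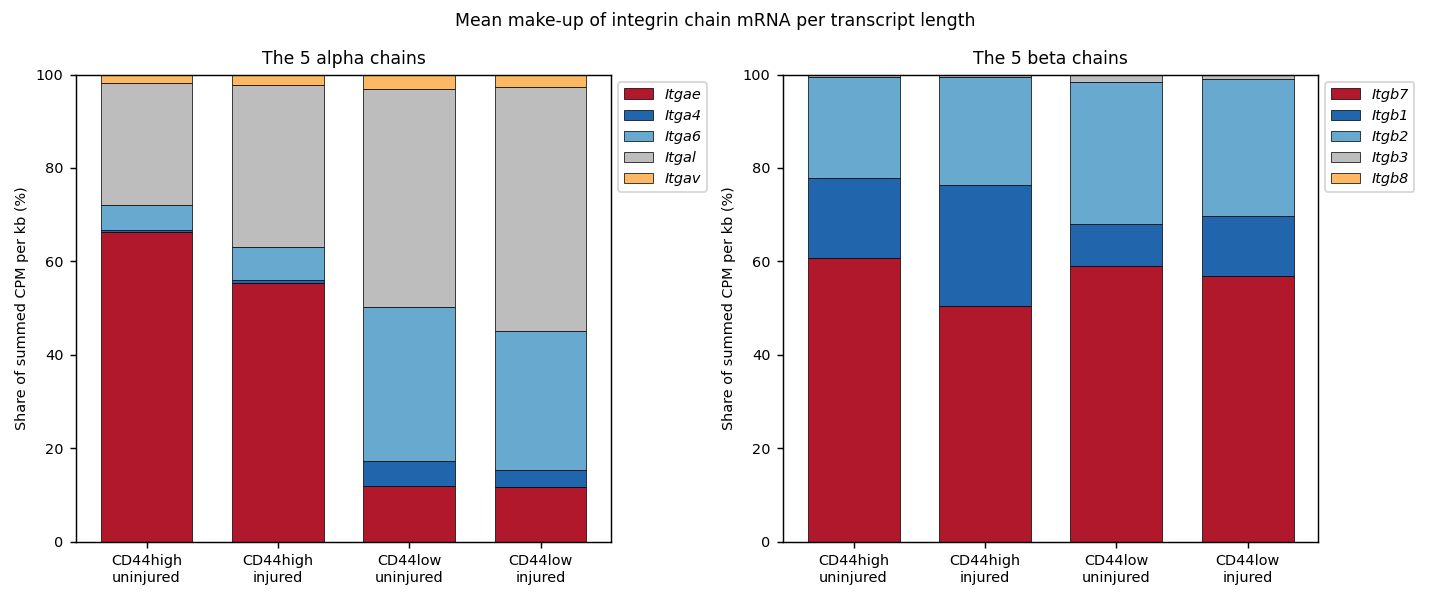
Mean share (%) of each chain in the summed CPM per kb of the 5 alpha chains (left) and the 5 beta chains (right) in the 4 groups, without error bars. Itgae makes up the largest part of the alpha chains in CD44high Tregs, Itgal in CD44low Tregs, and Itgb7 the largest part of the beta chains in all 4 groups. Lengths are those of the longest annotated transcript, and the shares depend on that choice.

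Itgb1 encodes the beta1 chain, which pairs with alpha4, alpha6, alphaV and many other alpha chains, and it was the only one of the 10 that was higher after injury in both subsets. It was at 980.1, 1089.7, 1151 and 1204 CPM in uninjured CD44high and at 344, 337, 447, 392 and 381 CPM in uninjured CD44low libraries. Injured mice had it at 1519, 1564, 1763 and 1539.7 CPM in CD44high libraries, and between 378 and 732 CPM with a median of 556 in CD44low libraries. All injured CD44high libraries lay above all uninjured ones, whereas in CD44low Tregs library 1_2 of the injured group lay within the uninjured range and the other 5 above it. Between the subsets the log2 difference was 1.54 ± 0.13 in uninjured (edgeR adjusted p = 9.19e-10) and 1.51 ± 0.12 in injured mice (edgeR adjusted p = 7.55e-10). After injury it rose by 0.53 ± 0.14 in CD44high (edgeR adjusted p = 0.0364) and by 0.56 ± 0.12 in CD44low Tregs (edgeR adjusted p = 0.00701). The difference between these effects was -0.03 ± 0.18 (edgeR adjusted p = 0.975). The CD44high call was lost when any 1 of the 8 CD44high libraries was left out (adjusted p 0.0585 to 0.123, log2 change 0.48 to 0.58). The CD44low change was 0.69 (adjusted p = 0.000326) with libraries 1, 2 and 5 alone and 0.43 (adjusted p = 0.0531) with libraries 1_2, 4_2 and 5_2 alone.

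Itga6 encodes the alpha6 chain, a laminin receptor chain, and was lower in CD44high Tregs. It was at 119, 135, 159 and 141 CPM in uninjured CD44high and at 415, 448, 404, 386 and 387 CPM in uninjured CD44low libraries. In injured animals it was at 90.6, 165, 146 and 119.6 CPM in CD44high libraries, and between 249 and 432 CPM with a median of 323 in CD44low libraries. The subsets did not overlap in either condition. The log2 fold change was -1.56 ± 0.17 in uninjured (edgeR adjusted p = 4.51e-08) and -1.34 ± 0.16 in injured mice (edgeR adjusted p = 3.98e-07). The change after injury was -0.09 ± 0.17 in CD44high and -0.31 ± 0.14 in CD44low Tregs, and neither passed the test (edgeR adjusted p = 0.863 and 0.169). In each injured group the library with the highest length trend had the highest Itga6 (165 CPM at 0.0135 and 432 CPM at 0.148). Over the alternatives, which include taking out this trend, the log2 difference between subsets was -1.63 to -1.47 in uninjured mice. In injured mice it was -1.49 to -1.20. The annotation places Gm13662 (9877 bases) and Gm13663 (2694 bases) over Itga6 on the same strand, and Gm13739 and Gm17250 on the opposite strand, none of which was analysed here.

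With Itgb1 higher and both Itga4 and Itga6 lower, the ratios of these alpha chains to beta1 were lower in CD44high Tregs. For Itga4 to Itgb1 per transcript length the log2 ratio was -7.29 ± 0.28 (SD, n = 4) in uninjured CD44high and -2.73 ± 0.20 (n = 5) in uninjured CD44low Tregs. After injury it was -7.30 ± 0.26 (n = 4) and -4.02 ± 0.36 (n = 6). The mean in CD44low Tregs was thus lower after injury, without overlap of libraries, while in CD44high Tregs the 2 groups overlapped and their means differed by less than the SD. For Itga6 to Itgb1 the log2 ratio was -3.18 ± 0.10 (n = 4) in uninjured CD44high against -0.07 ± 0.23 (n = 5) in uninjured CD44low Tregs, which is near equal levels per length. In injured mice it was -3.82 ± 0.34 (n = 4) and -0.94 ± 0.45 (n = 6).

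**Figure D4:**
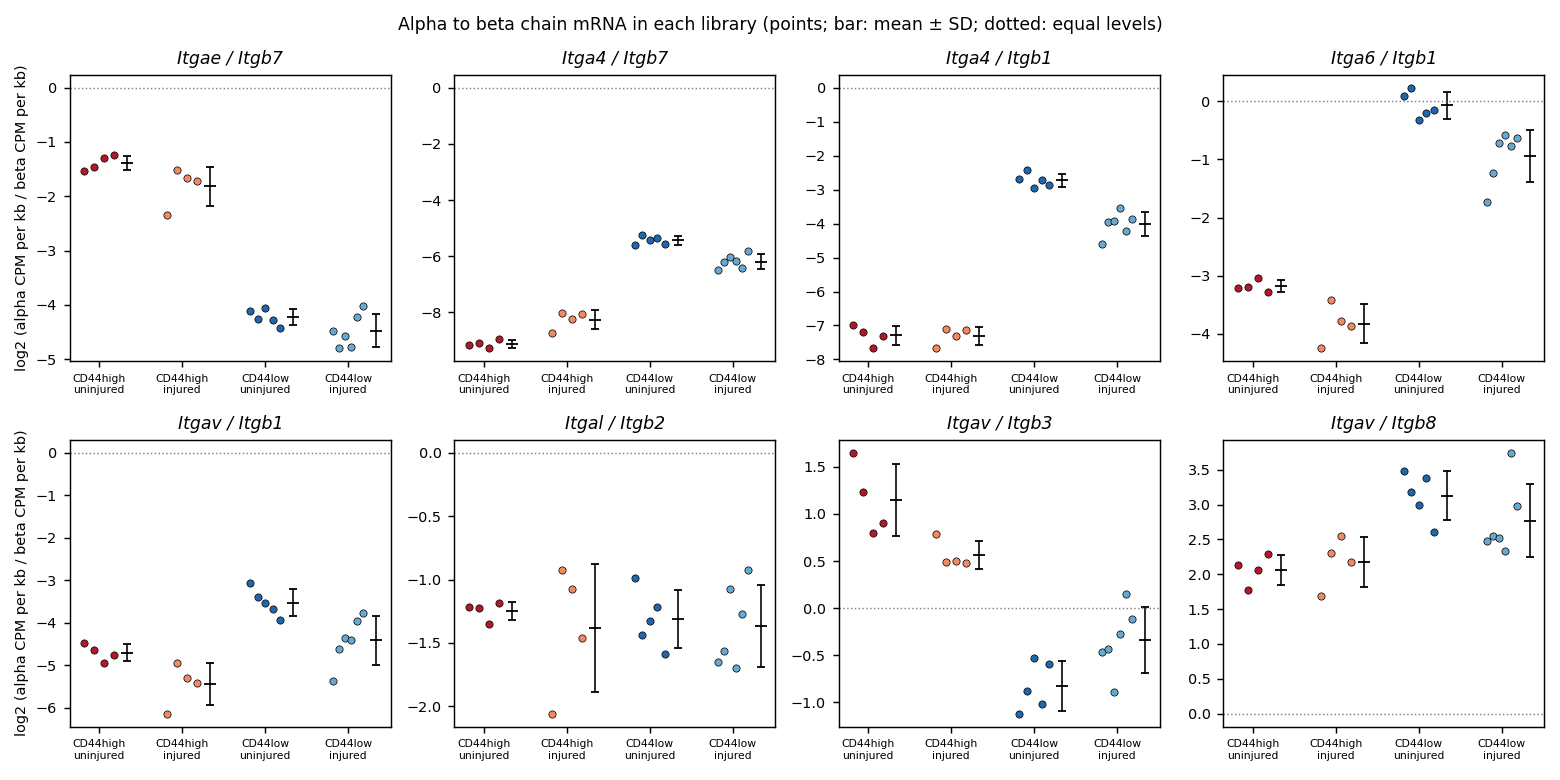
Log2 ratio of alpha to beta chain CPM per kb in each library (points), with the mean ± SD of the group beside them and a dotted line at equal levels. The subsets are apart in uninjured and injured mice for Itgae to Itgb7, Itga4 to Itgb7, Itga4 to Itgb1, Itga6 to Itgb1 and Itgav to Itgb3, and they overlap for Itgal to Itgb2.

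Itgal and Itgb2 encode the chains of LFA-1, and neither passed the test in any of the 5 comparisons. The mean of Itgal was 804 ± 53.3 CPM (SD, n = 4) in uninjured CD44high, 706 ± 125 (n = 5) in uninjured CD44low, 782 ± 247 (n = 4) in injured CD44high and 702 ± 169 CPM (n = 6) in injured CD44low Tregs. All 4 groups overlapped. The lowest values, 477 CPM in injured CD44high library 2 and 432 CPM in injured CD44low library 1_2, belonged to the libraries with the lowest length trend. The log2 fold change of Itgal between subsets was 0.19 ± 0.19 in uninjured (edgeR adjusted p = 0.442) and 0.16 ± 0.18 in injured mice (edgeR adjusted p = 0.530). With the length trend taken out it was 0.40 in uninjured mice (adjusted p = 0.0228).

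Itgb2 was steadier, at 1084 ± 32.0 CPM (SD, n = 4) in uninjured CD44high, 986 ± 36.1 (n = 5) in uninjured CD44low, 1110.4 ± 16.6 (n = 4) in injured CD44high and 1008 ± 129 CPM (n = 6) in injured CD44low Tregs. In uninjured mice all CD44high libraries lay above all CD44low libraries, yet the log2 difference of 0.14 ± 0.09 did not pass the test (edgeR adjusted p = 0.221). In injured mice the difference was again 0.14 ± 0.09, with overlap (edgeR adjusted p = 0.205). It was 0.25 (adjusted p = 0.0246) with the libraries that carry a second number as the only injured CD44low libraries and 0.01 (adjusted p = 0.910) without them. The log2 ratio of Itgal to Itgb2 per transcript length lay between -1.38 and -1.25 as a group mean and overlapped between all groups. Of the summed CPM per kb of the alpha chains, Itgal held 26.0% ± 1.14 in uninjured CD44high and 46.7% ± 3.70 in uninjured CD44low Tregs, although its own level did not pass the test.

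Itgav encodes the alphaV chain, which pairs with beta1, beta3 and beta8. It was at 78.4 ± 6.37 CPM (SD, n = 4) in uninjured CD44high, 61.8 ± 12.01 (n = 5) in uninjured CD44low, 71.1 ± 23.5 (n = 4) in injured CD44high and 50.4 ± 19.1 CPM (n = 6) in injured CD44low Tregs, and neighbouring groups in this order overlapped. The log2 fold change between subsets was 0.34 ± 0.24 in uninjured (edgeR adjusted p = 0.249) and 0.50 ± 0.23 in injured mice (edgeR adjusted p = 0.0891). With the length trend taken out it was 0.73 (adjusted p = 0.000801) and 0.69 (adjusted p = 0.000947), past the threshold in both. The uninjured difference also passed when only those 2 groups were fitted (adjusted p = 0.0445), and the injured one with the libraries that have a second number left out (0.78, adjusted p = 0.0101), whereas it was 0.23 (adjusted p = 0.519) with only those 3. Changes after injury were -0.14 ± 0.25 in CD44high and -0.29 ± 0.22 in CD44low Tregs, and neither passed (edgeR adjusted p = 0.852 and 0.407). Gm13684 (22084 bases) and Dnmt3l-ps1 (1253 bases) overlap Itgav on the opposite strand in the annotation and were not analysed here.

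Itgb3 encodes the beta3 chain, best known from platelets and from the vitronectin receptor alphaV-beta3. It was at 21.2, 28.1, 32.5 and 36.3 CPM in uninjured CD44high and at 135, 88.9, 83.9, 94.7 and 56.6 CPM in uninjured CD44low libraries. In injured mice it was at 18.99, 55.0, 48.4 and 39.4 CPM in CD44high libraries, and between 32.8 and 76.3 CPM with a median of 46.8 in CD44low libraries. The subsets were apart in uninjured mice and overlapped in injured mice. The log2 fold change between subsets was -1.63 ± 0.29 in uninjured (edgeR adjusted p = 6.79e-05) and -0.36 ± 0.27 in injured mice (edgeR adjusted p = 0.310). The difference between these, 1.27 ± 0.39, did not pass the test (edgeR adjusted p = 0.149), though it was 1.49 (adjusted p = 0.0382) without injured CD44high library 2. After injury Itgb3 fell in CD44low Tregs by 0.82 ± 0.25 on the log2 scale (edgeR adjusted p = 0.0433), and in CD44high Tregs the change was 0.45 ± 0.30 (edgeR adjusted p = 0.514).

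The CD44low fall of Itgb3 was lost without 13 of the 19 libraries in turn (with a log2 change of -0.62 and an adjusted p of 0.146 without uninjured CD44low library 1). Itgb3 moved with the length trend of the libraries. The highest value, 135 CPM, was in the library with the highest trend, 0.192, and the lowest, 18.99 CPM, in the library with the lowest, -0.272. With the trend taken out, the difference between subsets in uninjured mice was -1.35 (adjusted p = 4.39e-05) and the CD44low change after injury -0.63 (adjusted p = 0.0567). Platelet markers were near 0. Summed over the 5 markers of the list they were at 0 to 2.67 CPM in uninjured CD44high, 0 to 0.287 in uninjured CD44low, 0.131 to 0.664 in injured CD44high and 0 to 0.750 CPM in injured CD44low libraries, and Ppbp and Gp1bb had no count outside the injured CD44high group. Itga2b, the platelet partner of beta3, had at most 11 counts in any group.

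**Figure D5:**
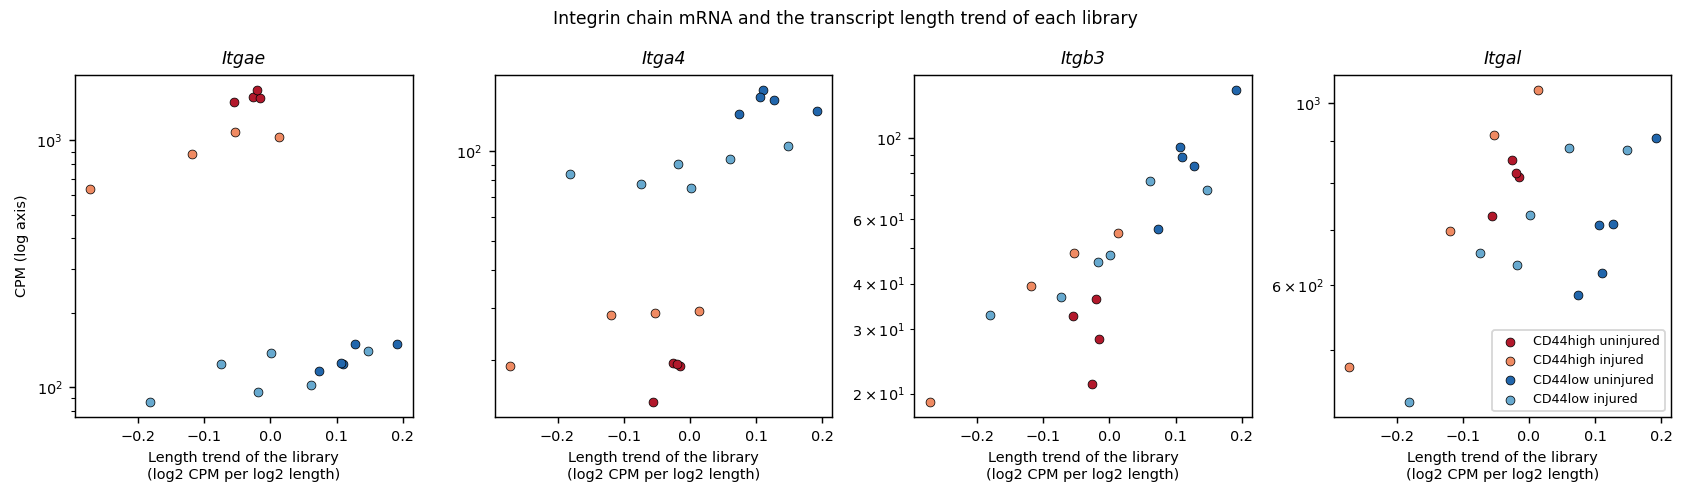
CPM of Itgae, Itga4, Itgb3 and Itgal (log axis) against the transcript length trend of each library (slope of log2 CPM on log2 length), coloured by group. Itgb3 rises with the trend across the libraries, whereas for Itgae and Itga4 the subsets stay apart wherever their trends meet.

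Itgb8 encodes the beta8 chain, the partner of alphaV in activating TGF-beta, and was the least abundant of the 10 chains in CPM in each group but uninjured CD44high, where Itga4 was lower. It was at 22.1, 28.1, 19.7 and 20.2 CPM in uninjured CD44high and at 8.13, 7.72, 10.6, 6.47 and 8.95 CPM in uninjured CD44low libraries. In injured mice it was at 14.7, 22.8, 16.9 and 17.6 CPM in CD44high libraries, and between 5.75 and 12.2 CPM with a median of 8.11 in CD44low libraries. All CD44high libraries lay above all CD44low libraries in each condition. Behind these values stood 572 and 617 counts in the CD44high groups and 274 and 346 counts in the CD44low groups. The log2 fold change between subsets was 1.42 ± 0.21 in uninjured (edgeR adjusted p = 8.24e-06) and 1.06 ± 0.20 in injured mice (edgeR adjusted p = 0.000202). Injury changed it by -0.32 ± 0.22 in CD44high and 0.04 ± 0.20 in CD44low Tregs, neither past the test (edgeR adjusted p = 0.531 and 0.926).

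Ratios were formed for the 3 alphaV receptors. Per transcript length, the log2 ratio of Itgav to Itgb3 was 1.15 ± 0.38 (SD, n = 4) in uninjured CD44high and -0.83 ± 0.26 (n = 5) in uninjured CD44low Tregs, and 0.56 ± 0.15 (n = 4) and -0.34 ± 0.35 (n = 6) in injured mice. The libraries did not overlap between subsets in either condition. The log2 ratio of Itgav to Itgb8 was 2.06 ± 0.21 (n = 4) in uninjured CD44high and 3.13 ± 0.35 (n = 5) in uninjured CD44low Tregs, without overlap, and 2.182 ± 0.36 (n = 4) and 2.77 ± 0.53 (n = 6) in injured mice, with overlap. Itgav to Itgb1 was at -4.71 ± 0.20 (n = 4) against -3.52 ± 0.33 (n = 5) in uninjured mice, without overlap, and at -5.44 ± 0.50 (n = 4) against -4.42 ± 0.57 (n = 6) in injured mice, with overlap.

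Across all 10 chains, Itgb7 ranked first in CPM per kb in each group, at 1028 ± 95.1 (SD) in uninjured CD44high, 644 ± 19.1 in uninjured CD44low, 815 ± 61.4 in injured CD44high and 652 ± 47.4 in injured CD44low Tregs. Second place was held by Itgae in uninjured CD44high (392 ± 17.7 CPM per kb), by Itgb1 in injured CD44high (419 ± 29.5) and by Itgb2 in both CD44low groups (332 ± 12.1 and 339 ± 43.3). Among beta chains, Itgb1 held 17.2% ± 2.185 of the summed CPM per kb in uninjured and 25.9% ± 0.927 in injured CD44high Tregs, and 9.11% ± 0.975 and 12.7% ± 1.69 in CD44low Tregs. Itgb7 held 60.7% ± 2.66 and 50.4% ± 1.36 in CD44high Tregs, and 59.0% ± 0.768 and 56.9% ± 2.91 in CD44low Tregs. These ranks and shares used the longest annotated transcript of each gene and depend on that choice. The median transcript of Itgb1 is 1.808 kb against 3.815 kb for the longest, and that of Itgae 3.835 against 3.845 kb.

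The genes whose log2 CPM was most like that of each chain were sought by Pearson's r over the 19 libraries, outside the integrin genes. The 19 libraries share their division into subsets, and the values are descriptions only. Osbpl3 (r = 0.995) and Cd44 (r = 0.994), the gene of the sort marker, were most like Itgae. Itih5 (r = 0.974) and Vps37b (r = 0.969) were most like Itga4, and Als2cl (r = 0.984) and Mfhas1 (r = 0.980) most like Itga6. Agfg1 (r = 0.974) and the chemokine receptor gene Ccr4 (r = 0.969) were most like Itgb1, and the chemokine receptor gene Cxcr3 (r = 0.956) and Anxa6 (r = 0.951) most like Itgb7. Jag1, a Notch ligand gene (r = 0.951), and Ncapd2 (r = 0.951) were most like Itgb8, and Top2b (r = 0.948) and Slfn5os (r = 0.935) most like Itgb3. For the chains that did not differ between subsets r was lower for Itgb2 (Adam17, 0.852, and Cd38, 0.842) and Itgal (Adam10, 0.895, and Nckap1l, 0.895), and reached 0.940 (Abr) and 0.937 (Asxl1) for Itgav.

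With the mean of each group taken out, other genes came first, and the libraries then also share their length trend. They were Tbc1d5 (r = 0.913) and Acsl4 (0.899) for Itgae, Senp5 (0.872) and Camk1d (0.844) for Itga4, and Epg5 (0.948) and Zfp445 (0.944) for Itga6. For Itgal they were Dnmt1 (0.975) and Susd6 (0.948), and for Itgav Trak1 (0.976) and Upf1 (0.965). For the beta chains they were Ak3 (0.852) and Mcm2 (0.849) for Itgb1, Ly9 (0.878) and Lrrc8c (0.850) for Itgb2, Itsn2 (0.923) and Klhl20 (0.918) for Itgb3, Tapbp (0.844) and Gpaa1 (0.839) for Itgb7, and Fgfrl1 (0.834) and Luc7l (0.821) for Itgb8.

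Among 17 further integrin genes of a fixed list, 9 passed the filter. In uninjured mice 7 of them were higher and 2 lower in CD44high Tregs, and in injured mice 6 were higher, 2 lower and 1 (Itgax) did not pass. Of all genes, 24.7% were higher and 21.3% lower in uninjured mice, and 20.1% and 17.2% in injured mice. Itga1, Itgam, Itgax and Itga9 had a mean under 10 counts a library in one subset of uninjured mice. Such genes could pass the filter only through groups where they were higher. Itga2 and Itgb5 were also low in CD44low Tregs and may have passed in the same way. These counts and tests are therefore descriptions. Itga2, a collagen receptor chain that pairs with beta1, was at 38.8 ± 8.11 CPM (SD, n = 4) in uninjured CD44high against 1.57 ± 1.18 (n = 5) in uninjured CD44low Tregs (log2 fold change 4.62 ± 0.43, edgeR adjusted p = 5.13e-09), and at 24.02 ± 5.07 (n = 4) against 3.00 ± 1.76 (n = 6) in injured mice (3.01 ± 0.37, edgeR adjusted p = 6.30e-07). Itga1, another collagen receptor chain, had 175 counts in uninjured CD44high and 8 in uninjured CD44low libraries in all, and 77 and 3 in injured mice. Itgb5 had a median of 10.3 CPM in injured CD44high against 1.04 in injured CD44low Tregs (log2 fold change 3.30 ± 0.61, edgeR adjusted p = 0.000147). Itga9 was lower in CD44high Tregs, with 10 counts in all against 162 in uninjured mice (edgeR adjusted p = 0.000184), and at 0.663 ± 0.264 against 2.76 ± 1.33 CPM in injured mice (log2 fold change -2.01 ± 0.63, edgeR adjusted p = 0.0137). Itga5, the fibronectin receptor chain, was also lower, at -1.77 ± 0.39 (log2) for uninjured and -0.93 ± 0.36 for injured mice (edgeR adjusted p = 0.000747 and 0.0448).

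After injury 0 of these 9 passed in CD44high Tregs by edgeR and 0 by DESeq2, while 3 had an unadjusted p under 0.05. By edgeR 2.38% of all genes passed in that comparison, so 0 of 9 is not particular to these genes. In CD44low Tregs, where 7.6% of all genes passed, Itga3 was lower (log2 fold change -0.98 ± 0.29, edgeR adjusted p = 0.0379) and Itgam was higher (edgeR adjusted p = 0.00873). Itgam, the alphaM chain of myeloid cells, had 6 counts over the 5 uninjured and 120 over the 6 injured CD44low libraries, and 157 and 352 in the CD44high groups. Of the 10 markers of macrophages and dendritic cells on the list, which includes Itgam and Itgax, all 10 were in the table. Their summed level ranged from 19.8 to 40.9 CPM (median 28.9) in uninjured and from 33.6 to 157 CPM (median 50.6) in injured CD44low libraries. In the CD44high groups it ranged from 90.5 to 165 CPM (median 121) and from 111 to 255 CPM (median 145). Fcgr1 and Clec9a had no count in the uninjured CD44low group. The 5 neutrophil markers summed to between 0 and 1.69 CPM (median 0) in uninjured and between 0 and 30.1 CPM (median 2.19) in injured CD44low libraries. Ly6g and Mpo were at 0 in both. In CD44high libraries the sums were between 0 and 0.5004 CPM (median 0.0891) and between 2.12 and 19.8 CPM (median 7.00). The part of such cells in the levels of Itgam and of the other integrin genes was not tested.

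Of the other marker lists, the 7 B cell markers summed to between 83.4 and 249 CPM in all libraries and the 7 markers of CD8 and NK cells to between 83.0 and 159 CPM, and their ranges in injured and uninjured mice overlapped within each subset. The CD8 and NK markers were higher in CD44high Tregs, at 117 to 159 against 83.0 to 115 CPM in uninjured mice. In injured mice they were at 119 to 134 against 87.4 to 103 CPM, and their part in the integrin results was not tested. The 9 markers of stroma and endothelium summed to 59.3 to 73.6 CPM in CD44high against 187 to 219 CPM in CD44low libraries of uninjured mice. In injured mice they summed to 78.5 to 114 against 135 to 231 CPM, and their part in the integrin results was not tested. Most of this sum was Pecam1, which T cells also express, while Pdgfra, Ccl21a and Ccl19 had no count in any group. The 6 markers of naive-like or central T cells summed to 2215 to 2914 CPM in CD44high and 5850.4 to 6877 CPM in CD44low libraries, which is the same direction as Itga4 and Itga6, and their part in those results was not tested.

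Genes that regulate integrin activation, in either direction, or link integrins to the cytoskeleton were taken as a list. Of 33 such genes on the list 26 were tested, of which 9 were higher and 9 lower in CD44high Tregs of uninjured mice, and 6 higher and 8 lower in injured mice. Of all genes 46.1% and 37.4% were called in these comparisons. Bcar1, an adaptor of adhesion signalling, passed the filter through the CD44high groups, where it was higher, and its values are a description. It was at 17.2 ± 6.44 CPM (SD, n = 4) against 0.542 ± 0.679 (n = 5) in uninjured mice, and at 5.65 ± 1.31 (n = 4) against 0.624 ± 0.441 (n = 6) in injured mice. Vcl, which encodes vinculin, rose by 1.62 ± 0.36 and 1.58 ± 0.33, and Skap2 by 1.31 ± 0.17 and 0.81 ± 0.16 (edgeR adjusted p = 0.000742, 0.000645, 8.91e-07 and 0.000261). Ptk2, the focal adhesion kinase gene, was at 2.19 ± 0.957 CPM against 19.6 ± 2.90 in uninjured mice (log2 fold change -3.13 ± 0.32, edgeR adjusted p = 2.88e-08) and differed by -2.38 ± 0.29 in injured mice (edgeR adjusted p = 5.30e-07). Cytip changed by -1.01 ± 0.10 and -0.91 ± 0.10, and Tln1, which encodes talin, by -0.91 ± 0.34 and -1.21 ± 0.33 (edgeR adjusted p = 1.37e-08, 6.96e-08, 0.0305 and 0.00581). After injury 0 of the 26 passed in CD44high Tregs by edgeR, with 3 at an unadjusted p under 0.05. In CD44low Tregs Itgb1bp1, whose product binds the beta1 tail, was higher (0.61 ± 0.15, edgeR adjusted p = 0.0197). Of all genes, 2.38% passed after injury in CD44high and 7.6% in CD44low Tregs.

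Integrin ligands and counter-receptors on the list numbered 17, of which 7 were tested. In CD44high Tregs 4 were higher and 1 lower in uninjured mice, and 3 higher and 1 lower in injured mice, where 46.1% and 37.4% of all genes were called. Lamc1, a laminin chain gene, was higher by 1.68 ± 0.31 and 1.18 ± 0.29 on the log2 scale (edgeR adjusted p = 0.000118 and 0.00283). Icam1, a ligand of LFA-1, was higher by 1.52 ± 0.10 on that scale in uninjured mice (edgeR adjusted p = 1.96e-11). In injured mice it was at 267 ± 13.1 CPM in CD44high against 140.0 ± 14.1 in CD44low Tregs (0.93 ± 0.10, edgeR adjusted p = 4.71e-08). Icam2, another ligand of LFA-1, was lower, at -0.77 ± 0.16 and -0.52 ± 0.15 on that scale (edgeR adjusted p = 0.000278 and 0.00789). Icam5 and Icam4, which passed the filter through the CD44high groups, had 19 and 26 counts in the uninjured CD44low and 142 and 69 in the uninjured CD44high libraries in all, which is given as a description. After injury 0 of the 7 passed in either subset by edgeR, with 1 in each at an unadjusted p under 0.05. The shares of all genes that passed were 2.38% in CD44high and 7.6% in CD44low Tregs, so 0 of 7 is not particular to this list.

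Of 16 genes for latent TGF-beta and for membrane partners of integrins, 12 were tested, of which 3 were higher and 2 lower in CD44high Tregs of uninjured mice, and 4 higher and 2 lower in injured mice. These shares stand beside 46.1% and 37.4% of all genes called. Lrrc32, which encodes GARP, the anchor of latent TGF-beta on Tregs, changed opposite to Itgb8. It was at 134 ± 19.4 CPM in uninjured CD44high against 482 ± 65.2 in uninjured CD44low Tregs (log2 fold change -1.85 ± 0.18, edgeR adjusted p = 1.22e-08) and differed by -1.70 ± 0.17 in injured mice (edgeR adjusted p = 4.17e-08). The tetraspanin genes Cd82 (1.05 ± 0.09 and 0.98 ± 0.09) and Cd81 (0.87 ± 0.11 and 0.56 ± 0.11) were higher in both conditions (edgeR adjusted p = 1.90e-09, 3.72e-09, 1.02e-06 and 0.000215). Cd37 was also higher in both, by 0.58 ± 0.12 in uninjured and 0.39 ± 0.11 in injured mice (edgeR adjusted p = 0.000318 and 0.00828). Tgfb3 had 110 counts in the injured CD44high and 37 in the injured CD44low libraries. It could pass the filter through the group where it was higher, so this is a description. It is among the genes counted above as higher in injured mice.

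Cd9, a tetraspanin gene, was lower in CD44high Tregs and, like Itga4, differed between subsets in its response to injury. It was at 25.6 ± 4.24 CPM (SD, n = 4) in uninjured CD44high and 122 ± 9.70 (n = 5) in uninjured CD44low Tregs (log2 fold change -2.25 ± 0.15, edgeR adjusted p = 1.97e-11), and at 62.2 ± 12.3 (n = 4) and 148 ± 20.7 (n = 6) in injured mice (-1.25 ± 0.14, edgeR adjusted p = 1.20e-07). The injured CD44high libraries, 49.2 to 78.7 CPM, lay above the uninjured ones, 19.3 to 28.4 CPM. After injury it rose by 1.28 ± 0.15 in CD44high Tregs (edgeR adjusted p = 4.76e-05), and the difference between subsets was 1.00 ± 0.20 (edgeR adjusted p = 0.0135). It was the only gene of the 3 pathway lists past the test for that difference by edgeR, against 0.645% of all genes. Cd82 was the other gene of this list that passed after injury, with 0.27 ± 0.08 in CD44low Tregs (edgeR adjusted p = 0.0476). Over all genes the shares called after injury were 2.38% in CD44high and 7.6% in CD44low Tregs.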

How the data were processed

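Gene counts of bulk RNA-seq libraries were taken as the authors deposited them, 1 column for each of the 19 samples, as raw counts per gene without normalization. The study's methods name the VIPER workflow. The submitters' processing notes name bcl2fastq 2.18, STAR 2.5 and the builds mm9 and mm10 without roles, and no source read for this work gives the strand of counting. Of the symbols 26 read as dates, none of them an integrin. Counts on genes per library ranged from 5582234 to 9433610. The cDNA was made with SmartSeq v4 reagents, per the labels.

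Statistics were computed in R 4.3.3 with edgeR 4.0.16 (on limma 3.58.1), and with DESeq2 1.42.0 as an alternative. Python 3.11.15 and matplotlib 3.10.9 drew the figures. All 4 groups entered 1 edgeR model with a mean per group and no covariates, after a filter with minimum count 10 and TMM scaling. Groups were compared by its two-sided quasi-likelihood test, with p-values adjusted after Benjamini and Hochberg across the 11464 genes, and a gene was called at an adjusted p under 0.05. The 5 comparisons were the subsets in each condition, injury in each subset and their interaction. Errors of log2 fold changes are SE and those of levels SD. Log2 CPM for the likeness of genes used a prior count of 2. Lengths and overlapping genes came from GENCODE vM21 (GRCm38) and promoters from RefSeq. Ratios carry no test. The statistics were tested on simulated data.

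Named were every chain and, per list and comparison, up to 3 genes of largest change in each direction past the threshold, the 2 genes most like each chain, overlapping genes and markers. The members and lists were chosen with earlier results of these data known. Alternatives were DESeq2, fits of the compared groups alone, RLE scaling, no filter, a replicate block, handling of the 3 libraries with a second number, thinning to the smallest total, a threshold of an unadjusted p under 1e-06 with a 2-fold change, median transcript length and each library left out. Taking out the trend on transcript length was chosen after seeing the data.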

Additional observations from a re-analysis of the deposited data

Results flagged for a closer look

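The effect of injury on Itga4 differed between subsets by 1.271 on the log2 scale (edgeR adjusted p = 0.000676), with CD44low libraries lower and CD44high libraries mostly higher after injury.

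In 3 cases 1 library of a group of 4 stood apart from the others by Dixon's 95% criterion, which chance meets in about 1 in 20 groups. Itga4 in uninjured CD44high library 4 was at 14.51 CPM, with the gap to the next library taking 0.911 of the group's range. Itga4 in injured CD44high library 2 was at 19.12 CPM, with a gap of 0.917 of the range, and this library also had the lowest length trend of all 19. Itgav in uninjured CD44high library 4 was at 68.89 CPM, with a gap of 0.875 of the range.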

How the results depend on the processing

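Between subsets, the calls of Itgae, Itga4, Itga6, Itgb1, Itgb7 and Itgb8 and the interaction of Itga4 kept their direction and side of the threshold in the alternatives run with an adjusted p. Over the results tested, 1316 values kept both, 46 lost the threshold, 18 gained it and 60 changed sign. The cause was not tested.

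After injury in CD44high Tregs, 3 chains were called, but 1 with the replicate block, 0 at an unadjusted p under 1e-06 with 2-fold, and 1 to 4 with each library left out. In CD44low Tregs, 3 were called, but 1 with the second-number libraries alone and 0 at the stricter rule. The interaction called 1 chain, 2 without the second-number libraries and 1 to 2 with each library left out. Of the other integrin genes, 2 were called in CD44low Tregs, but 1 with the block and 1 with the second-number libraries alone. Of the pathway genes, injury in CD44high Tregs gave 1 call, 4 by DESeq2, 3 without and 3 with only the second-number libraries. In CD44low Tregs it gave 2, 0 with the block and 4 without the second-number libraries, and the interaction gave 1, 2 by DESeq2 and 2 without those libraries.

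Same-numbered libraries of different groups had r of deviations from group means of -0.120 to 0.167. Between CD44high and CD44low libraries it was -0.00685 to 0.119 in uninjured and -0.0537 to 0.167 in injured mice. Differently numbered ones had -0.0798 to 0.0395 and -0.452 to 0.410. These ranges overlap, so they cannot settle whether the numbers are pairs. The main model did not take them as pairs. With the replicate block, injury in CD44high Tregs kept Itgae (adjusted p = 0.00777), while Itgb1 (adjusted p = 0.0586) and Itgb7 (adjusted p = 0.0642) were lost, as was Itgb3 in CD44low Tregs (adjusted p = 0.0543).

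Small log2 changes that turned sign belonged to chains not called. For injury in CD44low Tregs, Itgal was at 0.0083 by DESeq2, 0.0082 with RLE, 0.023 without the filter, 0.0048 with the block, 0.037 without second-number libraries, 0.018 thinned and 0.15 without the length trend. Itgb2 was at -0.084 and Itgb7 at -0.022 with second-number libraries alone, Itgb7 at -0.033 without the length trend, and Itgb8 at -0.014 with libraries 1 and 1_2, and 5 and 5_2, summed. For the interaction, second-number libraries alone gave 0.0025 (Itgal), -0.10 (Itgav) and 0.11 (Itgb1), and no length trend gave -0.030 (Itgav). For Itgb2 it was -0.016 by DESeq2, -0.016 with RLE, -0.0084 without the filter, -0.0010 with the block, -0.0074 with libraries summed, -0.12 without second-number libraries and -0.0014 thinned.

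With each library left out, sign changes spanned -0.22 to 0.064 for Itga6, -0.20 to 0.15 for Itgal and -0.30 to 0.068 for Itgav (injury in CD44high), -0.061 to 0.12 for Itgal and -0.063 to 0.17 for Itgb8 (injury in CD44low), and -0.0093 to 0.31 for Itgal (subsets, injured). For the interaction they spanned -0.20 to 0.13 for Itgal, -0.0095 to 0.34 for Itgav, -0.12 to 0.053 for Itgb1 and -0.055 to 0.043 for Itgb2.

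With the median transcript length, mean log2 chain ratios over the 19 libraries were -5.78 (Itgae to Itgb7), -7.54 (Itga4 to Itgb7), -4.06 (Itga4 to Itgb1), -2.86 (Itgav to Itgb1), 2.52 (Itgav to Itgb3) and 4.07 (Itgav to Itgb8), which are shifts by a constant per pair. Itgb8 had 32 to 215 counts per library.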
